A study of Mus musculus with 14 samples.

Results

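Skeletal muscle treated with follistatin was compared between 2 times of treatment, day 14 (2 libraries) and day 7 (2 libraries), so the groups held 4 of the 14 libraries of the series. All mice were of the strain C57Bl/6 and every library came from polyA RNA of the tibialis anterior, a fast muscle of the lower hind leg. Control muscle gave 2 libraries at day 7 and 1 library at day 14, and their values serve as a reference. The labels give neither how follistatin was delivered, nor what the control muscles received, nor the age of the mice, nor whether the libraries of a group came from separate mice, so each p-value below reflects no more than how these particular libraries differ, which may be technical. Levels are given in FPKM, a fragment count divided by transcript length and by the library's mapped fragments, so that genes can be compared per length. A difference is on the scale of log2(FPKM + 1), day 14 minus day 7, which understates the change of low genes.

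Follistatin, which cells secrete, captures myostatin and the activins before these reach their receptors. Myostatin and activins act through Smad2 and Smad3 and restrain muscle mass, and muscle with raised follistatin grows. Growth of this kind needs much protein to be made and folded. The endoplasmic reticulum (ER) answers a load of unfolded protein by raising its chaperones, and the factor ATF4 raises genes of amino acid synthesis and of one-carbon metabolism.

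Of 24359 genes in the files, 10940 had a mean of at least 1 FPKM over the 4 follistatin libraries and were tested. Olfr78, just inside that limit, had a mean of 1.0 FPKM, and Ghrl, just outside it, had 0.999. The authors' deposited table marks 31 genes as too deep to be estimated. These 31 were left out, and they hold 14 of the 15 muscle fibre markers, among them Acta1, Ckm, Myh4 and Tnnt3. The label of the tissue could therefore be checked only on what remained: Ryr1, the calcium release channel of the fibre, stood at 196 and 189 FPKM at day 7 and at 222 and 155 FPKM at day 14, and the fast fibre isoforms are not compared here. Summed FPKM ran from 364513 to 510584 over the 7 libraries of these days, with the 31 genes included. Several of the 31, such as Myl1 and Tnnc2, are listed at 0 in all 4 follistatin libraries and at high values in controls. The sums therefore cannot be compared between the arms. In all 7 libraries except control day 7 replicate 1, with 16158, 19383 to 20283 genes were above 0.

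The 4 follistatin libraries did not pair cleanly by day. Across genes, the day 7 libraries correlated at r = 0.947 and the day 14 libraries at 0.936, while day 14 replicate 1 correlated at 0.953 with day 7 replicate 2. Genes of different exon length moved apart between the replicates of both days. The genes were divided by exon length into 4 classes of equal size. In the class of the longest genes, with at least 6739 exon bases, the median deviation from the mean of the 7 libraries was -0.21 in day 7 replicate 1 and -0.24 in day 14 replicate 2, against 0.08 in day 7 replicate 2 and 0.01 in day 14 replicate 1. In the class of the shortest genes the same pair of libraries stood at 0.10 and 0.17 and the other pair at -0.02 and -0.13. Pdpr, chosen after its values were seen, has 5028 exon bases and falls in the class next to the longest. It set the same libraries apart, at 17.1 and 42.0 FPKM at day 7 and then 45.2 and 9.23 FPKM at day 14. The medians of its class were far smaller, at -0.09 and 0.04 at day 7 and -0.04 and -0.11 at day 14. Because the split crossed the days, the median difference between the days was near 0 in each class, from -0.05 to -0.03. Its part in the results below was not tested. Control libraries did not show it, with medians of 0.08 to 0.17 in the longest genes.

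**Figure D1:**
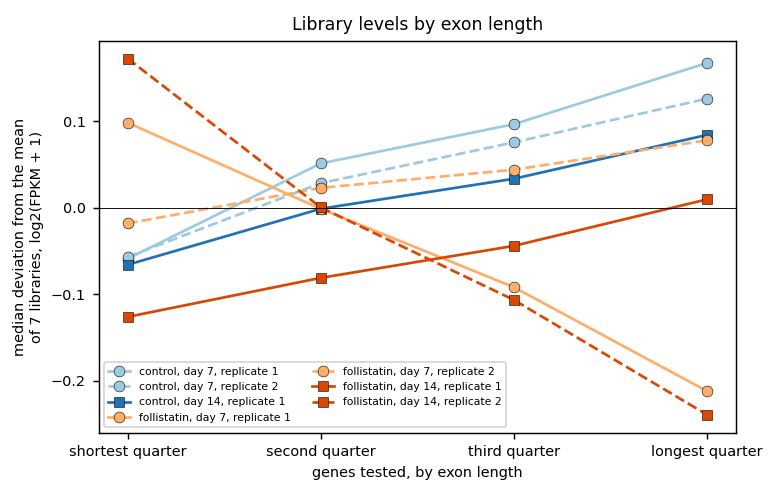
Median deviation of each of the 7 libraries from the mean of the 7, in log2(FPKM + 1), over 4 classes of genes by exon length (GENCODE M21). Follistatin day 7 replicate 1 and day 14 replicate 2 run from 0.10 and 0.17 in the shortest genes to -0.21 and -0.24 in the longest, while in the other 5 libraries the longest genes lie above the shortest.

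In the test across all 10940 genes, 15 passed (limma, Benjamini-Hochberg adjusted p under 0.05; 0.137%), 6 higher (0.0548%) and 9 lower (0.0823%) at day 14. All 15 were small RNA genes, and all 15 were listed at 0 in both libraries of 1 day. Mir466h, the highest of them at day 14, was at 0 in both day 7 libraries and at 324 and 439 FPKM at day 14, and Mir2137 was at 53.5 and 52.6 FPKM at day 7 and at 0 at day 14. The ratios between replicates of these genes took few values. In genes under 0.2 FPKM, the most frequent ratio of replicate 1 to replicate 2 was 1.017 at day 7 and 1.473 at day 14, and 7 of the 9 small RNA genes seen at day 7 and 4 of the 6 seen at day 14 had just that ratio, within 0.02 on the log2 scale. One more on each day, Mir466h at day 14 and Mir6981 at day 7, stood a factor of 2 from it, and Mir147 and Mir1892 stood at neither. Equal numbers of fragments in both replicates would give the modal ratio, but with FPKM alone those numbers are not known. All 15 reached the limit on low values through 1 day alone, so their days had to differ. At an unadjusted p under 0.05 there were 501 genes (4.58%), 187 higher (1.71%) and 314 lower (2.87%). Of all genes tested, 43.5% were above 0 and 56.5% below, and in control muscle 38.8% and 59.9%.

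With small RNA genes left out, 13 of 10700 genes passed (0.121%), 9 higher (0.0841%) and 4 lower (0.0374%). Fst, Mthfd2, Eda2r, Nnt, Cpne2, Krtap13-1, Sdf2l1 and Wdfy1 were higher at day 14 and Cyp2e1 and Cfd were lower. The other 3 were a small RNA under a predicted gene name and 2 clones. Cyp2e1 reached the limit of 1 FPKM through day 7 alone and the small RNA through day 14 alone, so their days had to differ. With the small RNA genes kept, none of these 10 named genes passed, with limma adjusted p from 0.122 for Mthfd2 and Nnt to 0.293 for Cfd. Without day 7 replicate 1, 2 of the 13 were still called, and neither was one of the 10 named genes. Without day 7 replicate 2, 5 of the 13 were, among them Cfd, Eda2r and Mthfd2. All 13 were called with either day 14 library left out, but in fits that called 332 genes without replicate 1 and 56 without replicate 2, against 3 and 10 genes without the day 7 libraries. In these fits the day left with 1 library takes its spread from the other day, so they are no sign of stability. The libraries of the 2 days were fully separated in 3835 genes out of 10940 (35.1%), 1332 higher (12.2%) and 2503 lower (22.9%), and counts of that kind below are to be read against these shares. With 2 libraries a side, an exact permutation test of a single gene cannot go below p = 0.333, from 6 splits.

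Follistatin itself lay higher at day 14, and Fst was among the genes that passed without small RNA genes. Fst (chr13:114452290-114458951, minus strand, mm10) stood at 367 and 407 FPKM at day 7 and at 1315 and 1421 FPKM at day 14. In control muscle it was at 0.808 and 1.17 FPKM at day 7 and 1.04 FPKM at day 14. Both day 14 libraries lay above both day 7 libraries, 3.53-fold in the means, while the level in controls stayed near 1 FPKM. The difference was 1.82 ± 0.28 (SE; adjusted p = 0.0308 by limma without small RNA genes, from 0.00293 to 0.992 over all alternatives). Its exons share 115 bases with a gene on the other strand. FPKM counts every fragment of Fst, so transcripts of the muscle and any delivered copy cannot be told apart. Among the other antagonists, Wfikkn2, which binds myostatin, lay lower, at 3.04 and 2.93 FPKM at day 7 and then 1.57 and 1.26 FPKM at day 14, with controls at 4.77, 4.53 and 3.8 FPKM. Nog, which binds BMPs, was at 1.19 and 0.806 FPKM and then at 1.64 and 2.84 FPKM, with controls at 1.45, 1.63 and 1.38 FPKM. It reached the limit of 1 FPKM through day 14 alone, which favours a higher day 14. The differences of Fstl1 and Chrd were 0.01 and -0.11. None of these 4 passed the test.

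Ligands, receptors and Smads of these pathways gave no called gene. Mstn, which encodes myostatin, overlapped between the days at 18.3 and 39.8 FPKM against 52.8 and 36.1 FPKM, with controls at 12.9, 20.2 and 23.7 FPKM. In the list of myostatin and activin ligands, receptors and Smads, 8 of 15 tested members were above 0 and 7 below. Of the 15, 3 lay lower without overlap (background 22.9%). The median was 0.02, from -0.19 to 0.24 with 1 library left out, so its sign rests on single libraries. Smad3, a carrier of their signal, had the smallest p of that list, at 27.3 and 29.0 FPKM and then 24.4 and 17.2 FPKM, with controls at 35.8, 31.8 and 34.4 FPKM (unadjusted p = 0.111). Of 14 BMP ligands, receptors and Id targets 3 lay lower (background 22.9%) and 1 higher (background 12.2%) without overlap. Their median of 0.05 ran from -0.11 to 0.15 with 1 library left out. The 2 with the smallest p were ligands. Bmp6 was at 3.65 and 3.77 FPKM and then at 2.06 and 1.07 FPKM, with controls at 6.32, 4.78 and 4.08 FPKM. Bmp4 was at 2.94 and 2.45 FPKM and then at 1.76 and 1.02 FPKM, with controls at 1.99, 2.88 and 1.38 FPKM. Smad3, Bmp6 and Bmp4 were thus separated between the days, as were 35.1% of all genes tested, and none of the 3 passed the test. Over all genes tested the median was -0.04.

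The ER chaperones as a list lay higher at day 14. Of 26 members tested, 24 were above 0 and 19 lay higher without overlap (background 12.2%), none lay lower, and 10 had an unadjusted p under 0.05. Their median was 0.42, and leaving out each library in turn gave 0.33 to 0.54. In control muscle their median was -0.06, with 18 of 26 below 0. No member passed with all genes in the test, and Sdf2l1 did without small RNA genes.

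**Figure D2:**
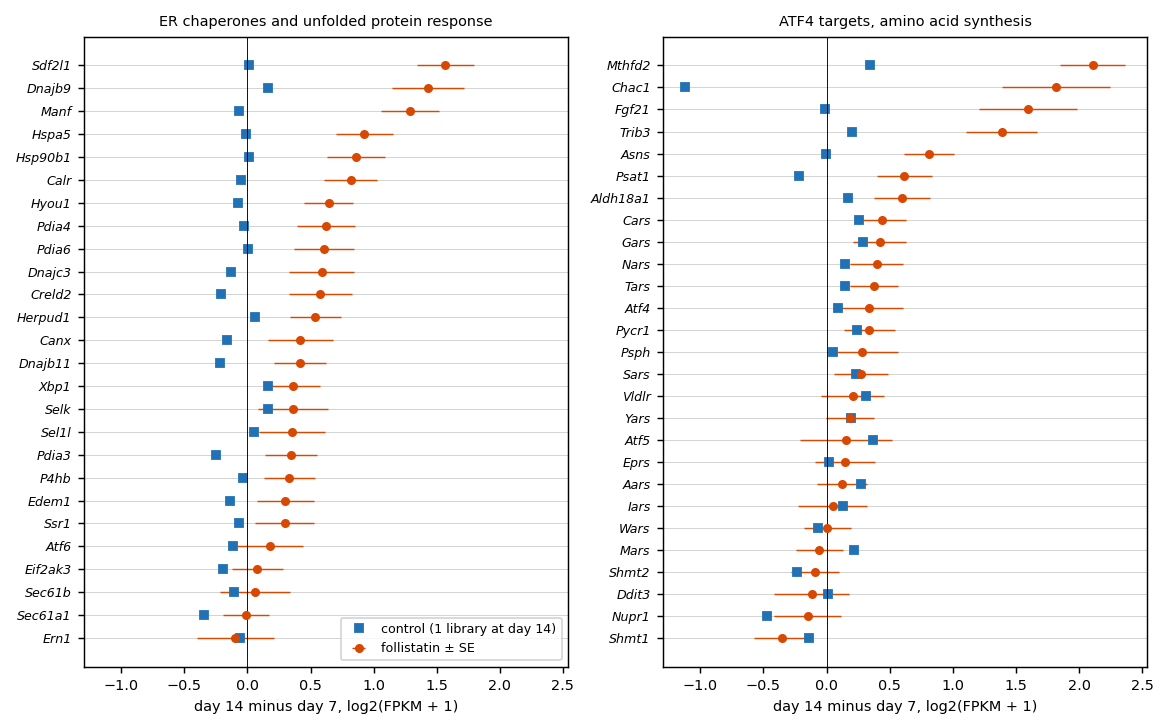
Difference between day 14 and day 7, in log2(FPKM + 1), for each tested member of 2 gene lists. Circles with bars are follistatin muscle with the standard error of the limma fit (2 libraries a day), and squares are control muscle (2 libraries at day 7, 1 at day 14). In the ER list 24 of 26 circles lie to the right of 0, and in the ATF4 list 22 of 27. Without the 4 ATF4 list members that reached the limit of 1 FPKM through day 14 alone, 18 of 23 do.

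Sdf2l1, a component of the ER chaperone complex (chr16:17130138-17132383, minus strand), was at 3.11 and 3.40 FPKM at day 7 and at 9.77 and 13.8 FPKM at day 14. Controls had 1.43 and 1.76 FPKM at day 7 and 1.61 FPKM at day 14. Both day 14 libraries were thus well above the other 5, and the difference was 1.57 ± 0.24 (SE; adjusted p = 0.0319 by limma without small RNA genes, from 0.00232 to 0.996 over the alternatives). Manf, a secreted factor of ER stress, stood at 14.7 and 17.0 FPKM and then at 34.5 and 46.4 FPKM, with 5.48 to 5.91 FPKM in controls, and it missed the threshold (adjusted p = 0.0825 by limma without small RNA genes, 0.430 with them, from 0.0133 to 0.996 over the alternatives). Its exons and those of an opposite-strand gene share 166 bases. Both genes had their 2 highest levels in the day 14 follistatin libraries. The members that follow were named after their values were seen. Hspa5, the main ER chaperone of the Hsp70 family (also called BiP), stood at 156 and 194 FPKM at day 7 and at 322 and 341 FPKM at day 14, against 81.8 to 84.5 FPKM in controls. Its day 14 libraries thus lay above its day 7 libraries, and these above all controls. Dnajb9, a co-chaperone of Hspa5, was at 22.0 and 36.9 FPKM and then at 80.6 and 76.6 FPKM, with 19.8 to 24.5 FPKM in controls. Calr, a calcium-binding chaperone of glycoproteins, was at 139 and 148 FPKM and then at 238 and 270 FPKM, with 92.2 to 96.3 FPKM in controls. Hsp90b1, the Hsp90 of the ER, was at 66.9 and 83.3 FPKM and then at 126 and 148 FPKM, with 58.2 to 60.4 FPKM in controls. Exons of Hsp90b1 share 415 bases with a gene on the other strand. In Hspa5, Calr and Hsp90b1 both follistatin libraries of day 7 lay between controls and day 14, and in Dnajb9 1 lay within the range of controls and 1 above it.

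Not all of the list took part. Sec61a1, a subunit of the translocon, had 9.78 and 10.2 FPKM at day 7 and then 9.98 and 9.86 FPKM at day 14, with controls at 6.48 to 9.09 FPKM, and Ern1, which encodes the sensor IRE1, had 1.57 and 2.95 FPKM and then 2.55 and 1.5 FPKM, with controls at 2.96 to 3.38 FPKM. Their differences were -0.01 and -0.10.

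The upstream sequence of the chaperone genes is shown because most of the list lay on 1 side. In the 250 bases before the RefSeq start (GRCm38.p6), the ER stress element, searched on both strands as CCAAT, 9 bases of any kind and CCACG, was in 37 of 32851 promoters (0.113%), in 12 of 8248 tested genes with an entry (0.145%) and in 7 of the 21 chaperone list members with an entry (33.3%). The 7 were Calr, Canx, Creld2, Dnajc3, Hsp90b1, Hspa5 and Pdia6, and all 7 lay higher at day 14 without overlap, by 0.42 to 0.93, with a median of 0.61. Of the 14 members with an entry and no match, 9 lay higher without overlap and the median was 0.35. Sdf2l1 and Dnajb9 were among those 14, so the letters and the size of the difference did not go together throughout. The list was made of known genes of the ER stress response. A high share with this element was thus set by the choice of list and is no result of these libraries. Whether the element has a part in the differences was not tested. The 2 sequences below run 5′ to 3′ toward the start of the gene, with the element in capitals. Hspa5 lies at chr2:34771840-34772089 (+ strand) and Hsp90b1 at chr10:86705445-86705694 (- strand), and Hsp90b1 holds it once on each strand.
Hspa5: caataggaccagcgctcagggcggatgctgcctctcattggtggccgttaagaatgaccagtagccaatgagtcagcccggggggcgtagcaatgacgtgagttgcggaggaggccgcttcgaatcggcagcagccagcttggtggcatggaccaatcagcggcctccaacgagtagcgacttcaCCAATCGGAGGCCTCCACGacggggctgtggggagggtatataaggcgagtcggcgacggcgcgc
Hsp90b1: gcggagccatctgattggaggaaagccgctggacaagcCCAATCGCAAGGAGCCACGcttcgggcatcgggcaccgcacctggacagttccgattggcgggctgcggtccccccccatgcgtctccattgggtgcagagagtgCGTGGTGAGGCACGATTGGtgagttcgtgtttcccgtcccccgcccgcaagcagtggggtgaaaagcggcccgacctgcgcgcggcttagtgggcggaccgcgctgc

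The list of ATF4 targets had a lower median and fewer separated members. Of 33 members 27 were tested. Of these, 22 were above 0, 15 lay higher without overlap and 1 lower, 7 had an unadjusted p under 0.05, and the median was 0.28, from 0.18 to 0.38 over the alternatives. Asns, Chac1, Fgf21 and Trib3 reached the limit of 1 FPKM through day 14 alone, so they had to differ. All 4 are among the 7 with an unadjusted p under 0.05, so that count is no support for the list. Without these 4, 18 of 23 were above 0, 11 lay higher without overlap and 1 lower, and the median was 0.21. In control muscle 19 of 27 were above 0 too, with a median of 0.14. Mthfd2, a mitochondrial enzyme of folate-bound one-carbon metabolism (chr6:83305691-83325908, minus strand), was at 3.60 and 5.0 FPKM at day 7 and at 18.2 and 25.8 FPKM at day 14, with controls at 2.07, 2.53 and 3.18 FPKM. Its 5.11-fold higher mean was a difference of 2.11 ± 0.26 (SE; adjusted p = 0.0102 by limma without small RNA genes, from 0.000116 to 0.992 over the alternatives). Trib3, a pseudokinase that binds ATF4, was at 0.172 and 0.484 FPKM and then at 1.84 and 3.18 FPKM, with controls at 0.232 to 0.519 FPKM, and is given as values only. Neither gene overlapped between the days, and the controls of both stayed below its day 14 libraries.

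Further members, named after their values were seen, were low in follistatin muscle at day 7. Chac1, which degrades glutathione, was at 0.698 and 0.784 FPKM at day 7 and at 2.91 and 8.66 FPKM at day 14. Its controls were far higher, at 19.7 and 28.1 FPKM at day 7 and 10.3 FPKM at day 14, so the arms differed most at day 7. Fgf21, a secreted hormone that stressed muscle can release, was at 0 and 0.060 FPKM and then at 1.12 and 3.56 FPKM, and no control exceeded 0.147 FPKM. Asns, asparagine synthetase, was at 0.712 and 0.856 FPKM and then at 2.08 and 2.17 FPKM, with controls at 0.797 to 1.02 FPKM. Shmt1, Nupr1, Ddit3, Shmt2 and Mars were below 0, by 0.36 at most.

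An element bound by ATF4 with C/EBP factors was searched as TGATGNAA on both strands in the same window. It was in 1134 of 32851 promoters (3.45%), in 196 of the 8248 tested genes with an entry (2.38%) and in 9 of 23 list members with an entry (39.1%). The 9 were Aars, Asns, Chac1, Fgf21, Gars, Nupr1, Pycr1, Tars and Vldlr. Of these, 7 lay higher without overlap, and the median of the 9 was 0.38. Of the 14 members without a match, 6 did, and the median was 0.23. Asns, Chac1 and Fgf21 among the 7 and Trib3 among the 6 reached the limit through day 14 alone. The filter thus bears on both medians, and they are not to be compared. The other matched members ran from -0.15 for Nupr1 to 0.42 for Gars. Mthfd2 and Trib3 had no match in this window. As this list was made of known ATF4 targets, its high share was likewise set by the choice of list. A part of the element in the differences was not tested. Chac1 lies at chr2:119350992-119351241 (+ strand), Asns at chr6:7693210-7693459 (- strand) and Fgf21 at chr7:45615491-45615740 (- strand). Their sequences follow with the element in capitals.
Chac1: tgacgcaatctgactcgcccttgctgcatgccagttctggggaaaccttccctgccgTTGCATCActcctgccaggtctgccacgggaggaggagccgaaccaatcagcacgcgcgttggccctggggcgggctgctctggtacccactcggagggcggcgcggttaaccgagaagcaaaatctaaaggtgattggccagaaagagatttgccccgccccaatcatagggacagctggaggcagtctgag
Asns: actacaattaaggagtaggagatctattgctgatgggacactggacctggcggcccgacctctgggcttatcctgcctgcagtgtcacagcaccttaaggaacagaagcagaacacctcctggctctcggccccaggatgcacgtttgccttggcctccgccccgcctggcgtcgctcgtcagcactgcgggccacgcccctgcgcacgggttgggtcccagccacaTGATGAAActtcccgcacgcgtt
Fgf21: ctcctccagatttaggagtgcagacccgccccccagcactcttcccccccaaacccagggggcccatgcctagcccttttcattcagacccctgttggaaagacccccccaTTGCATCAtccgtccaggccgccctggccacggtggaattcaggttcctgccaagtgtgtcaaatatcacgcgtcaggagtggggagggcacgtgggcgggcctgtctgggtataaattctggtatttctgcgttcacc

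Several other genes were set apart at day 14 in follistatin muscle while controls stayed level. Eda2r, a receptor of the TNF receptor family that binds ectodysplasin A2 (chrX:97333840-97377216, minus strand), was at 2.51 and 4.02 FPKM at day 7 and at 19.7 and 14.8 FPKM at day 14, with controls at 3.24 to 4.29 FPKM. Its difference was 2.11 ± 0.26 (SE; adjusted p = 0.0102 by limma without small RNA genes, from 0.000116 to 0.990 over the alternatives). Cpne2, a calcium-dependent membrane-binding protein (chr8:94532990-94570531, plus strand), went from 4.31 and 5.79 FPKM to 15.7 and 21.4 FPKM, with controls at 2.68 to 2.94 FPKM (adjusted p = 0.0284 by limma without small RNA genes, from 0.00126 to 0.996 over the alternatives). In Eda2r the day 7 libraries were at the control level, and in Cpne2 they were above it. Krtap13-1, a keratin-associated protein gene (chr16:88728862-88729611, plus strand), was listed at 0 in all 3 controls, at 0.829 and 1.47 FPKM at day 7 and at 5.73 and 4.76 FPKM at day 14 (adjusted p = 0.0308 by limma without small RNA genes, from 0.00232 to 0.992 over the alternatives). Rgcc, a cell cycle regulator found in endothelium, was at 20.8 and 22.8 FPKM and then at 48.1 and 57.04 FPKM, with 17.3 to 20.2 FPKM in controls (adjusted p = 0.0825 by limma without small RNA genes, from 0.0176 to 0.992 over the alternatives). Without small RNA genes Krtap13-1 passed and Rgcc did not. With them neither passed (adjusted p = 0.252 and 0.337 by limma), and in 1 alternative, robust eBayes, both did (0.00894 and 0.0419). Gadd45a, a stress-induced growth arrest gene, was at 37.6 and 44.6 FPKM and then at 71.3 and 149 FPKM, with 14.4 to 21.3 FPKM in controls, and 7 of the 17 members of its list lay higher without overlap, 3 lower. Serpinb1a, an inhibitor of neutrophil proteases, was at 6.79 and 12.7 FPKM and then at 23.8 and 31.1 FPKM, with 1.83 to 3.33 FPKM in controls. In all of these 6 genes both day 14 libraries exceeded all of the other 5. Gadd45a and Serpinb1a did not pass (adjusted p = 0.243 and 0.110 by limma without small RNA genes, 0.893 and 0.732 with them).

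**Figure D3:**
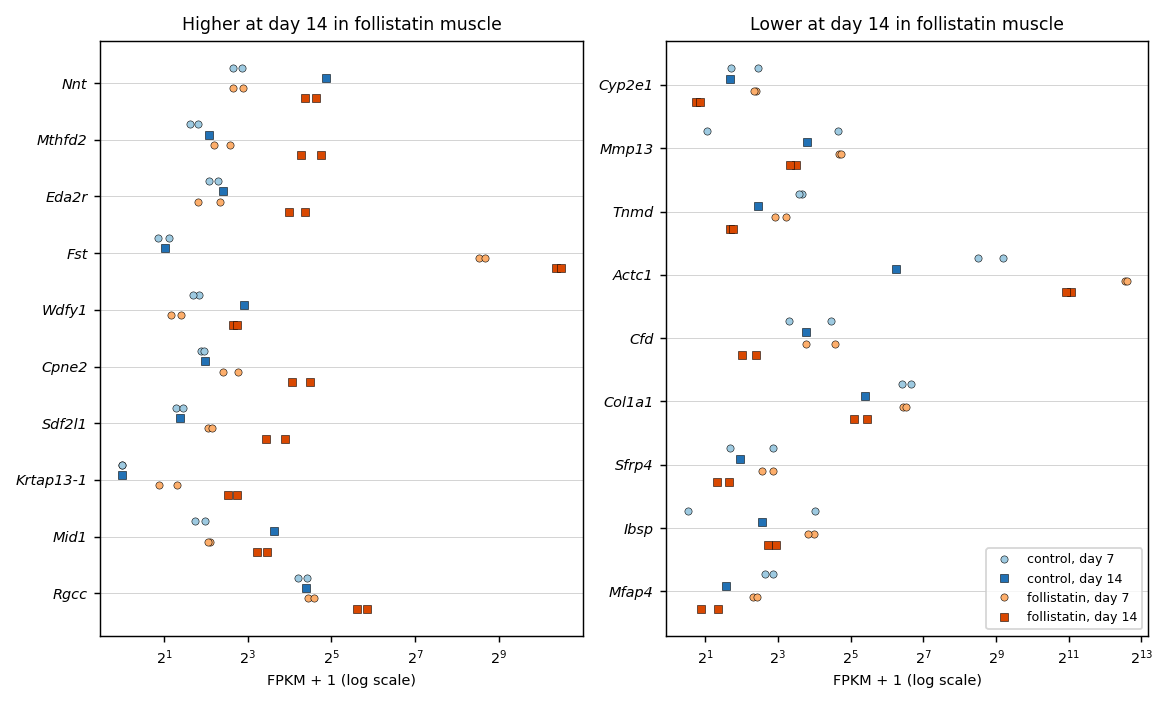
FPKM + 1 on a log scale for each library of the named genes with the most support, 10 higher and 9 lower at day 14, in the 2 control groups (3 libraries) and the 2 follistatin groups (4 libraries). Nnt, Wdfy1, Mid1, Tnmd, Col1a1 and Mfap4 are shifted between the days in both arms, while Mthfd2, Eda2r, Cpne2, Sdf2l1 and Rgcc stand apart in the follistatin day 14 libraries alone.

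A second class of genes differed between the days in control muscle as well. Nnt, the mitochondrial transhydrogenase (chr13:119335528-119408952, minus strand), was at 5.26 and 6.38 FPKM at day 7 and at 23.9 and 19.7 FPKM at day 14, and controls stood at 6.22 and 5.32 FPKM and then at 28.2 FPKM. The difference in follistatin muscle was 1.74 ± 0.23 (SE; adjusted p = 0.0176 by limma without small RNA genes, from 0.000793 to 0.953 over the alternatives), and that in controls was 2.11. The difference between those differences was -0.37 ± 0.27 (SE; unadjusted p = 0.216). Nnt is known to carry a deletion in the substrain C57BL/6J, and the labels give the strain without a substrain. Day and the origin of the mice therefore cannot be told apart, for Nnt or any other gene compared between the days. Wdfy1, an endosomal protein, went from 1.25 and 1.66 FPKM to 5.26 and 5.67 FPKM, and from 2.58 and 2.24 FPKM to 6.56 FPKM in controls (adjusted p = 0.0383 by limma without small RNA genes, from 0.00486 to 0.992 over the alternatives). Exons of Wdfy1 share 126 bases with a gene on the other strand, and those of Mid1 share 951. Mid1, a ubiquitin ligase of microtubules, went from 3.25 and 3.12 FPKM to 8.32 and 10.1 FPKM, and from 2.37 and 2.94 FPKM to 11.3 FPKM in controls. Ostn, which encodes the muscle hormone osteocrin, and Otud1, a deubiquitinase, both named after their values were seen, also had day 14 above day 7 in either arm, by 1.10 and 1.47 in follistatin muscle and by 1.49 and 1.35 in controls.

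The collagens belonged to this second class on the lower side. All 19 tested members were below 0 in follistatin muscle and all 19 in controls, with medians of -0.65 and -0.71. In follistatin muscle 14 of the 19 lay lower without overlap (background 22.9%) and 8 had an unadjusted p under 0.05. Col1a1, the first chain of type I collagen, was at 85.5 and 90.8 FPKM at day 7 and at 42.6 and 33.1 FPKM at day 14, and in controls at 83.4 and 101 FPKM and then at 41.3 FPKM. Col1a2, its partner chain, was at 107 and 130 FPKM and then at 58.8 and 54.1 FPKM, and in controls at 127 and 146 FPKM and then at 64.3 FPKM. For both chains the lower day 14 level was seen in either arm. Without day 14 replicate 2 the median of the list was -0.39 and without day 14 replicate 1 it was -0.88. Mfap4, a protein of elastic fibres, and Mmp2, a gelatinase, did likewise, with differences of -1.26 and -1.03 in follistatin muscle and -1.19 and -0.91 in controls. Of 40 matrix proteins and remodelling enzymes 33 were below 0 in follistatin muscle and 37 in controls.

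A further 3 genes of secreted proteins lay lower in follistatin muscle at day 14, but their day 7 controls were split. Mmp13, a collagenase of bone and cartilage, was at 24.5 and 25.6 FPKM and then at 10.2 and 9.08 FPKM, with controls at 24.0 and 1.07 FPKM and then at 12.9 FPKM. Ibsp, bone sialoprotein, was at 14.8 and 13.1 FPKM and then at 6.67 and 5.64 FPKM, with controls at 15.1 and 0.439 FPKM and then at 4.93 FPKM. Sfrp4, a secreted Wnt antagonist, was at 6.34 and 4.89 FPKM and then at 1.49 and 2.13 FPKM, with controls at 6.32 and 2.23 FPKM and then at 2.88 FPKM. In each of them control day 7 replicate 1 was near the follistatin day 7 level and replicate 2 was lower, so the controls give no steady reference. None of the 3 passed the test.

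Markers of several other cell types lay lower as well, and here the values of the arms were less alike. In bulk muscle, fewer cells of a type and less RNA per cell cannot be told apart. All 7 tested tendon markers were below 0, 6 without overlap, with a median of -0.71 against -0.44 in controls. Tnmd, tenomodulin, was at 6.59 and 8.31 FPKM and then at 2.23 and 2.40 FPKM, and in controls at 11.6 and 10.9 FPKM and then at 4.43 FPKM. Chad, chondroadherin, was at 11.0 and 6.13 FPKM and then at 1.77 and 2.67 FPKM, but at 12.4, 10.4 and 10.9 FPKM in controls. Fmod, fibromodulin, was at 32.2 and 35.6 FPKM and then at 13.7 and 16.9 FPKM, with controls at 39.3, 44.2 and 31.4 FPKM. Tnmd thus lay lower at day 14 in both arms, and Chad in follistatin muscle with controls level. Comp, a cartilage matrix protein, went from 4.03 and 2.33 FPKM to 1.18 and 1.88 FPKM, with controls at 5.27, 4.72 and 7.46 FPKM. Summed over the list, tendon markers came to 102 and 105 FPKM at day 7 and then 48.4 and 62.8 FPKM at day 14, against 136, 136 and 98.5 FPKM in controls.

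All 6 tested adipocyte markers lay lower at day 14 without overlap, with a median of -0.86 in follistatin muscle and 0.00 in controls. Cfd, the fat cell protease adipsin (chr10:79890853-79892655, plus strand), was at 22.8 and 12.7 FPKM and then at 4.26 and 3.00 FPKM, with controls at 8.94, 20.8 and 12.6 FPKM (difference -1.98 ± 0.29 SE; adjusted p = 0.0270 by limma without small RNA genes, from 0.00126 to 0.996 over the alternatives). Adipoq, adiponectin, was at 4.06 and 2.65 FPKM and then at 1.43 and 0.677 FPKM, and Retn, resistin, at 5.97 and 2.12 FPKM and then at 1.18 and 0.686 FPKM. Retn reached the limit through day 7 alone, and the median without it was -0.64. Cyp2e1, a cytochrome P450 (chr7:140763739-140774987, plus strand), was on none of the lists and went from 4.24 and 4.08 FPKM to 0.670 and 0.824 FPKM, with controls at 2.27, 4.48 and 2.18 FPKM (it reached the limit through day 7 alone; difference -1.56 ± 0.21 SE; adjusted p = 0.0176 by limma without small RNA genes, from 0.00115 to 0.497 over the alternatives). The control replicates of day 7 also lay apart, at 2.01 and 4.80 FPKM for Adipoq and at 1.71 and 4.18 FPKM for Retn.

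Smooth muscle and pericyte markers were below 0 in 11 of 13, with 9 lower without overlap and a median of -0.65 against -0.20 in controls (-0.31 without day 14 replicate 2). Acta2, smooth muscle actin, was at 19.7 and 16.1 FPKM and then at 8.72 and 6.91 FPKM, with controls at 24.6, 16.5 and 18.8 FPKM. Myl9, a smooth muscle light chain, was at 50.1 and 45.3 FPKM and then at 25.6 and 24.5 FPKM, with controls at 41.0, 29.0 and 31.0 FPKM. Of 19 endothelial markers 18 were below 0, 12 of them without overlap, with a median of -0.41 against -0.25 in controls. Emcn, endomucin, was at 12.1 and 15.0 FPKM and then at 8.71 and 7.23 FPKM, with controls at 18.1, 15.9 and 13.1 FPKM, and Rgcc, given above, was the 1 member above 0. Fibroblast markers had a median of -0.35 in follistatin muscle and -0.57 in controls, where all 20 were below 0.

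Myelin genes of Schwann cells went opposite ways in the 2 arms. All 4 tested members lay lower at day 14 without overlap in follistatin muscle, and all 4 lay higher in the control library of day 14 than at day 7. Mbp, myelin basic protein, was at 4.37 and 3.8 FPKM and then at 2.23 and 2.63 FPKM in follistatin muscle, and at 7.16 and 6.26 FPKM and then at 16.8 FPKM in controls. Pmp22, a membrane protein of peripheral myelin, was at 15.4 and 15.2 FPKM and then at 12.4 and 10.9 FPKM, and at 20.8 and 19.9 FPKM and then at 34.1 FPKM in controls. The difference between the arms' differences was -1.78 ± 0.24 for Mbp (SE) and did not pass (interaction term of limma, adjusted p = 0.215). It rests on a single control library at day 14, which stands apart from the other 6 in both genes.

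**Figure D4:**
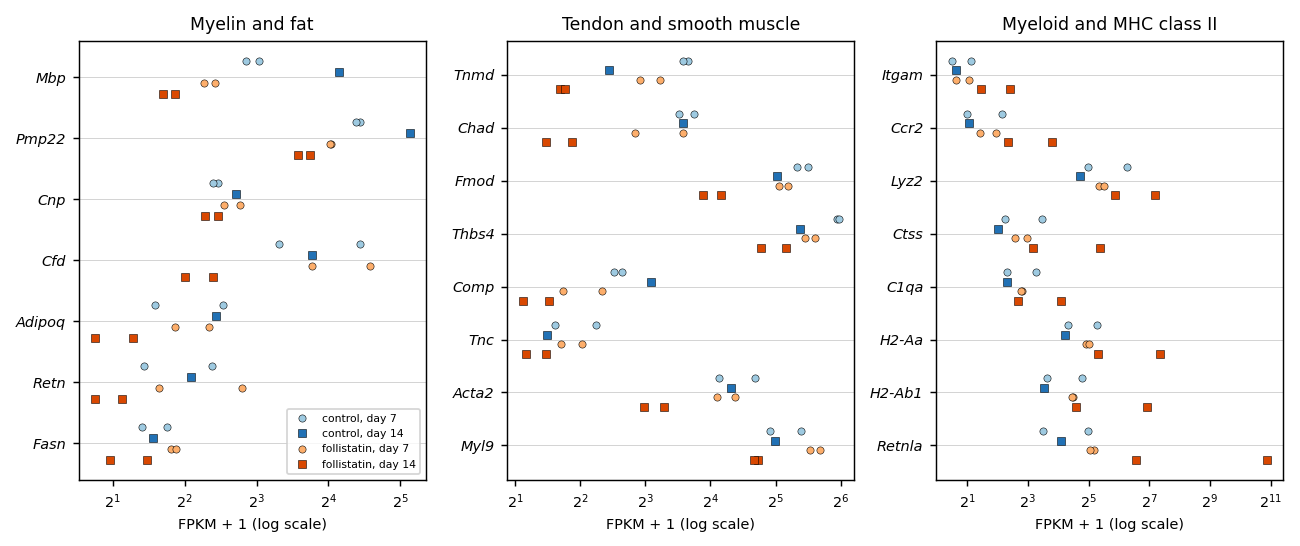
FPKM + 1 on a log scale in each library for markers of nerve sheath and fat, of tendon and smooth muscle, and of myeloid cells and antigen presentation. The day 14 follistatin libraries are the lowest in most rows of the first 2 panels, and in the panel of myeloid genes 1 of the 2 is the highest library in every row (Retnla 1893 FPKM, next highest 93.1).

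Macrophage markers and genes of antigen presentation were high in 1 day 14 library. Of 16 tested macrophage markers 15 were above 0, with a median of 0.71, but that median was 1.42 without day 14 replicate 1 and 0.13 without day 14 replicate 2. For antigen presentation 19 of 20 were above 0 with a median of 0.35, which was -0.37 without day 14 replicate 2. Lyz2, lysozyme, was at 39.4 and 44.9 FPKM at day 7 and at 57.2 and 145 FPKM at day 14, and H2-Aa, a chain of MHC class II, at 29.4 and 31.0 FPKM and then at 38.3 and 161 FPKM. Ccr2, a receptor of monocytes, was at 1.68 and 2.84 FPKM and then at 4.08 and 13.0 FPKM, with controls at 1.01, 3.46 and 1.08 FPKM. Itgam, an integrin chain of myeloid cells, was at 0.559 and 1.08 FPKM and then at 1.75 and 4.28 FPKM, with controls at 0.412, 1.17 and 0.562 FPKM, though it reached the limit through day 14 alone and shares exon bases with another gene on its strand. Controls of day 7 differed between replicates too, with H2-Aa at 19.0 and 38.1 FPKM and Lyz2 at 30.4 and 76.3 FPKM. Summed macrophage markers were 107 and 119 FPKM at day 7 and then 128 and 378 FPKM at day 14, and 72.3, 175 and 64.8 FPKM in controls. Genes named after their values were seen included Retnla, a secreted protein of alternatively activated macrophages, at 35.3 and 32.3 FPKM and then at 93.1 and 1893 FPKM, with 10.4 to 30.9 FPKM in controls. Ear2, a ribonuclease of eosinophils and macrophages, was at 0.972 and 0.868 FPKM and then at 1.62 and 40.9 FPKM, with at most 0.712 FPKM in controls. Ear2 too reached the limit through day 14 alone. The chemokine Ccl6 was at 3.57 and 5.11 FPKM and then at 5.41 and 62.0 FPKM, with 1.52 to 5.74 FPKM in controls, and Igtp, an interferon-induced GTPase, was at 4.67 and 8.57 FPKM and then at 6.28 and 98.4 FPKM, with 4.48 to 9.18 FPKM in controls. Day 14 replicate 2 was the highest of the 7 libraries for every gene given here, and the part of this library in other results is shown by the leave-one-out values.

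Contractile genes with a known link to muscle growth took separate courses. Actc1, cardiac actin, which is used in developing muscle (chr2:114047282-114053548, minus strand), was at 5939 and 6161 FPKM at day 7 and at 2122 and 1933 FPKM at day 14. In controls it was at 359 and 578 FPKM and then at 74.6 FPKM, so it lay lower at day 14 in either arm while follistatin muscle stayed above controls at each day. The difference was -1.58 ± 0.25 (SE) in follistatin muscle and missed the threshold (adjusted p = 0.142 by limma without small RNA genes, 0.293 with them, from 0.00857 to 1 over the alternatives). Mybph, a myosin-binding protein, did not separate, at 196 and 238 FPKM and then at 234 and 210 FPKM, while controls had 20.4 and 30.9 FPKM and then 10.8 FPKM. Its exons share 1162 bases with a gene on the other strand. Myl4, an embryonic and atrial light chain, was at 11.9 and 13.0 FPKM and then at 4.90 and 6.77 FPKM, with controls at 11.7, 11.4 and 8.92 FPKM. Only Mybph of these 3 overlapped between the days. Tceal7, a small nuclear protein, was at 162 and 311 FPKM and then at 393 and 533 FPKM, with 18.7 to 21.5 FPKM in controls, and its exons share 223 bases with those of Bex1 on the other strand. Of 12 slow fibre genes 10 were below 0 with a median of -0.28, and none had an unadjusted p under 0.05. Myl3, the slow light chain, was at 47.5 and 22.0 FPKM and then at 20.4 and 21.3 FPKM, with controls at 49.0 and 21.9 FPKM and then at 74.1 FPKM.

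Stress proteins of the fibre were divided. Hspb8, a small heat shock protein that works with Bag3, was at 412 and 501 FPKM and then at 850 and 980 FPKM, with 187 to 210 FPKM in controls. Ankrd1, a titin-associated ankyrin protein, was at 14.7 and 20.4 FPKM and then at 34.9 and 32.1 FPKM, with 12.8 to 19.4 FPKM in controls. Its relative Ankrd2 was at 111 and 59.4 FPKM and then at 45.7 and 36.4 FPKM, with 27.6 to 42.1 FPKM in controls, and Csrp3, a Z-disc protein, at 17.2 and 9.13 FPKM and then at 7.29 and 4.27 FPKM, with 13.8 to 29.8 FPKM in controls. Ankrd1 and Ankrd2 thus lay on opposite sides. Of the 19 members of the list 6 were higher without overlap (background 12.2%) and 2 lower (background 22.9%). Ankrd2 and Csrp3 were named after their values were seen.

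No member of the lists of atrophy ligases, oxidative regulators, fatty acid oxidation or oxidative phosphorylation passed, with or without small RNA genes. Other metabolic genes, Mthfd2, Nnt and Cyp2e1, passed without small RNA genes and are given above. Of these, Cyp2e1 reached the limit of 1 FPKM through day 7 alone. Fbxo32, a muscle ubiquitin ligase also called atrogin-1, was at 15.7 and 16.5 FPKM and then at 25.3 and 22.4 FPKM, still under the 44.7 to 52.5 FPKM of controls. Trim63, the ligase MuRF1, overlapped at 88.0 and 81.4 FPKM against 85.9 and 102 FPKM, with 113 to 123 FPKM in controls. Asb2, a subunit of a Cullin ubiquitin ligase, overlapped too at 53.4 and 35.0 FPKM against 43.0 and 30.6 FPKM, far below the 165 to 198 FPKM of controls. Fbxo32 was thus the only 1 of these 3 ligase genes whose days were separated. Igf1, a growth factor of muscle, was at 4.31 and 6.16 FPKM and then at 2.83 and 3.73 FPKM, with 5.12 and 6.01 FPKM and then 3.30 FPKM in controls. Mb, myoglobin, was at 1406 and 803 FPKM and then at 525 and 811 FPKM, and in controls at 3013 to 4294 FPKM. Igf1 lay lower at day 14 in both arms, while Mb overlapped. Perm1, a regulator of oxidative genes, was at 107 and 94.4 FPKM and then at 64.4 and 49.1 FPKM, with controls at 129, 98.8 and 89.3 FPKM. Sirt3, a mitochondrial deacetylase, was at 21.9 and 20.3 FPKM and then at 13.8 and 13.2 FPKM, with controls at 22.6, 19.1 and 18.4 FPKM. Their differences were -0.83 and -0.61. In their list of myoglobin and oxidative regulators 8 of 20 lay lower and 2 higher without overlap, 4 had an unadjusted p under 0.05, and the median was -0.26 (-0.09 without day 14 replicate 2). Fatty acid oxidation and uptake genes were below 0 in 26 of 30 in each arm, with medians of -0.22 and -0.14. Oxidative phosphorylation genes had a median of 0.00, with 39 of 78 on either side, but it ran from -0.23 without day 14 replicate 2 to 0.24 without day 14 replicate 1.

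Ribosomal and proteasome genes showed small differences on 1 side whose sign 1 library could turn. Of 78 cytosolic ribosomal protein genes 70 were below 0 with a median of -0.22, while 72 of 78 were above 0 in controls with a median of 0.13. Without day 14 replicate 1, the library lowest in short genes, the median in follistatin muscle was 0.10. Rpl34 had the smallest p of the list, at 49.6 and 61.5 FPKM and then at 25.9 and 33.8 FPKM, with controls at 37.6, 40.8 and 28.5 FPKM, and genes of this kind have near-identical copies, so their values are uncertain. Of 38 proteasome genes 32 were above 0 with a median of 0.14, which was -0.02 without day 14 replicate 2. Psmd11, a subunit of the regulatory particle, was at 36.2 and 41.6 FPKM and then at 54.3 and 49.5 FPKM, with 44.1 to 45.4 FPKM in controls.

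Hemoglobin genes could not be read between the days. Hba-a1, Hba-a2 and Hbb-bs ranged from 0.0363 FPKM to 49.9 FPKM in follistatin muscle, overlapped between the days, and have near-identical copies among which reads may be split. Alas2, the erythroid enzyme of heme synthesis, which has no such copy, was at 2.07 and 2.96 FPKM and then at 1.19 and 1.66 FPKM, with controls at 1.72, 3.78 and 1.85 FPKM.

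**Figure D5:**
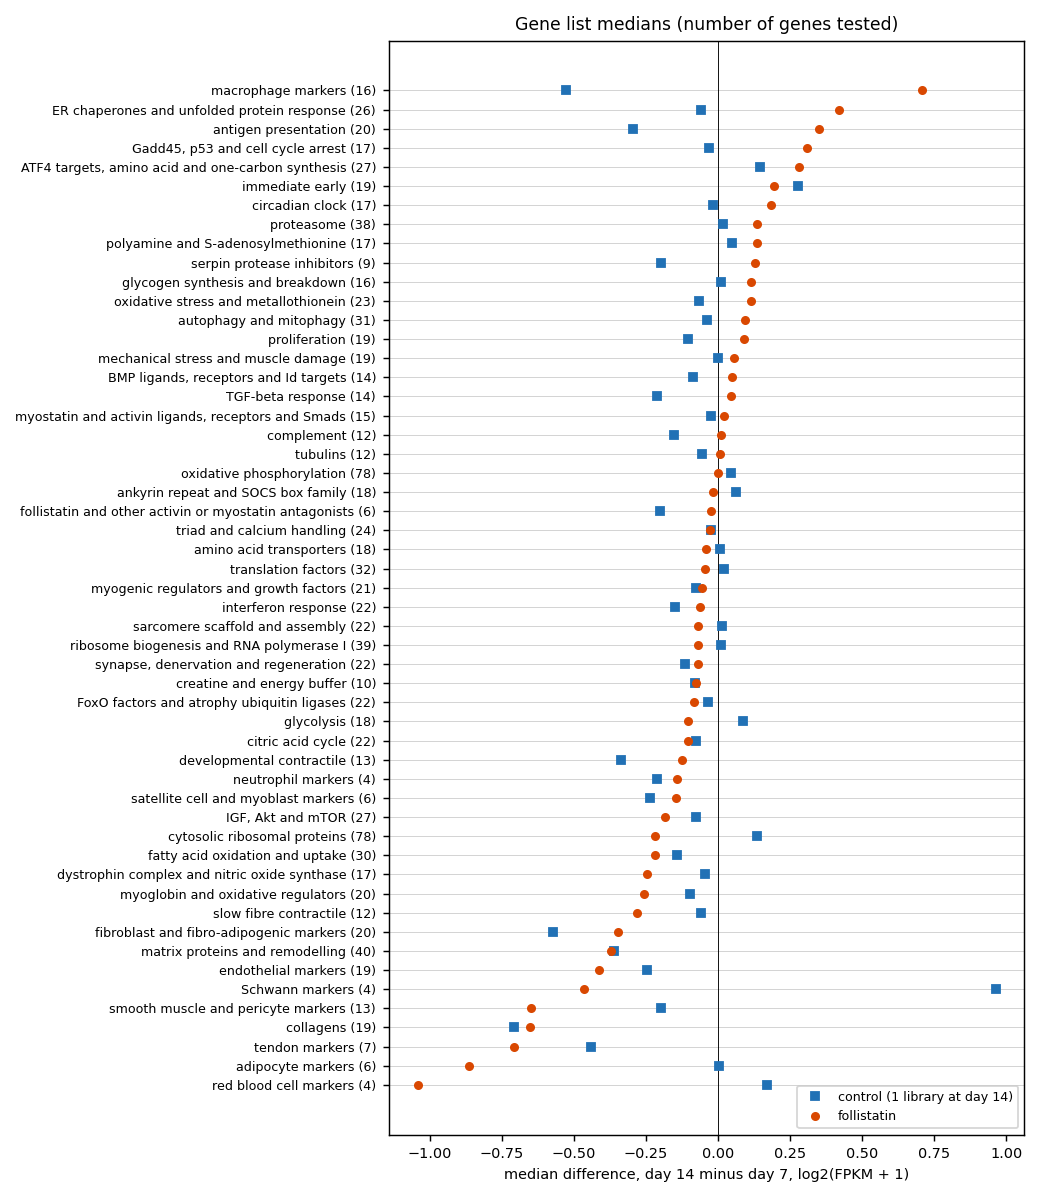
Median difference between day 14 and day 7, in log2(FPKM + 1), of each gene list with at least 4 tested members (number in brackets). Circles are follistatin muscle and squares control muscle, with 1 control library at day 14. The arms lie close for collagens (-0.65 and -0.71), lie apart for ER chaperones (0.42 and -0.06), and are on opposite sides of 0 for Schwann markers (-0.46 and 0.96).

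The list medians place these groups beside each other. Macrophage markers, ER chaperones and antigen presentation had the highest medians in follistatin muscle and red blood cell, adipocyte and tendon markers the lowest among lists of at least 4 tested members. The red blood cell median of -1.04 was -0.13 without day 14 replicate 1, and the dependence of macrophage markers and antigen presentation on single libraries is given above. The difference between the arms' day differences, tested over all 10940 genes, was called for 10 genes (0.0914%), 3 higher (0.0274%) and 7 lower (0.064%), all of them small RNA genes (limma interaction term, adjusted p under 0.05). At an unadjusted p under 0.05 there were 175 genes (1.6%). Among protein-coding genes the term was 1.89 ± 0.36 for Eda2r, 1.78 ± 0.26 for Fst, 1.76 ± 0.35 for Mthfd2 and 1.62 ± 0.32 for Cpne2 (SE), and none passed (adjusted p from 0.323 for Fst to 0.969 for Mthfd2). The control arm alone gave 3 called genes (0.0274%), all small RNA genes.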

How the data were processed

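PolyA RNA of tibialis anterior muscle was sequenced after an Illumina TruSeq preparation, per the labels' protocols. The submitters' processing notes name TopHat, Cuffdiff and the build mm10, and their versions and the counting strand are not given in the sources used here. The authors deposited 1 FPKM value per gene and library, so the depth is unknown, no count model was used and no counting interval is given. Left out were 31 genes with the status HIDATA in that table and 27 symbols turned into dates.

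Levels were tested as log2(FPKM + 1) in genes whose mean over the 4 follistatin libraries reached 1 FPKM. The test was limma 3.58.1 under R 4.3.3, with a trended prior (lmFit, eBayes), two-sided, and Benjamini-Hochberg adjustment over all genes tested. The interaction used all 7 libraries of days 7 and 14, and its lone day 14 control is assumed to vary like the others. On simulated data with 10700 genes, the number left without small RNA genes, the test of the days recovered 79 of 100 genes changed 2-fold. It recovered 99 of 100 changed 4-fold, and called 22 unchanged genes. The interaction test recovered 19 and 88, and called 13 unchanged genes. In both tests unchanged genes made up a larger share of the calls than the threshold of 0.05. In the measured data without small RNA genes, the smallest difference among the called genes was 1.40, for Wdfy1. Hspb8, at 1.005, did not pass there (adjusted p = 0.384 by limma). The simulated shares are therefore not the power of the test in these libraries.

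The members and lists were chosen with earlier results of these data known. Named genes were 10 known from those results, 10 in each direction (the called, else the smallest p without overlap, leaving out clones, predicted genes, pseudogenes and small RNA genes), and in each list the 2 of smallest p, or any member with at most 12 tested; a few are not reported here. Positions, exon lengths (10589 genes matched) and shared exons are from GENCODE M21. Alternatives covered the pseudocount, filter, scaling, variance model, replicate block, small RNA genes and each library left out.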

Additional observations from a re-analysis of the deposited data

Results flagged for a closer look

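The difference between the day effect in follistatin muscle and that in control muscle was called for 10 genes (limma interaction term, adjusted p under 0.05). Each is set down for that call. All but Mir130c reached the limit of 1 FPKM through 1 follistatin day alone and were listed at 0 in all 3 controls. For those genes the filter set the term away from 0, so their calls are no sign that the arms differ. The term was -6.03 for Scarna17, -5.69 for Mir6970, -4.92 for Mir181b-1, -4.87 for Snord32a, -4.66 for Mir196b, -6.75 for Mir1892 and -3.14 for Mir1192, each listed at 0 in all 3 controls and in both day 14 follistatin libraries. It was 6.47 for Gm25500 and 5.31 for Mir6898, both listed at 0 outside the day 14 follistatin libraries. It was 7.86 for Mir130c, which was at 296 and 132 FPKM in controls at day 7, listed at 0 in the control of day 14, and at 26.2 to 38.7 FPKM in follistatin muscle. The genes are 59 to 121 bases long. Mir6898 at 47.0 and 31.9 FPKM and Gm25500 at 106 and 72.1 FPKM stood in the ratio of 1.473, which is the most frequent one between the day 14 replicates in genes under 0.2 FPKM. Without small RNA genes by symbol, Gm25500 was the 1 gene called.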

How the results depend on the processing

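The count of genes called between the days, 15, was 12 to 22 with another pseudocount, filter, scaling or trend, without small RNA genes or with all 7 libraries. It was 40 with robust eBayes, 37 with robust eBayes and no small RNA genes (chosen after seeing the data), and 45 to 80 when 1 library was left out, of which 3 to 70 were higher. Of the 15, 1 gene was also among the 13 called without small RNA genes, and the share of calls that were higher was 40% and 69.2%. The interaction count, 10, was 5 with a pseudocount of 0.1, 1 with at least 5 FPKM, 1 without small RNA genes, 1 with robust eBayes beside that, 0 in limma without small RNA symbols or biotypes (chosen after seeing the data; 203 at an unadjusted p under 0.05), and 9 to 61 when 1 library was left out. Replicate numbers recur in both groups, but the labels do not say that they mark pairs. Across genes, the deviations of the replicate 1 libraries from the means of their days correlated at -0.169. With 2 libraries a day, replicate 2 gives the same value by construction. A negative value means that same-numbered libraries tended to deviate in opposite directions. With the replicate number as a block, 18 genes were called between the days and 8 in the interaction, and 106 in place of 13 without small RNA genes. With 1 library left out, Asb2 ran from -0.55 to 0.049 and Mybph from -0.10 to 0.18. Asb2 turned to 0.049 and Mybph to -0.10 without follistatin day 7 replicate 1, and Mybph to -0.04 without follistatin day 14 replicate 1. Neither was called in any fit, and the cause was not tested. Having 2 libraries a day and no read counts limits all of these values.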
